A study of Bos taurus with 3 samples.

Results

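The genes described here are the WNT ligands, their receptors, their secreted antagonists and the first intracellular mediators of the pathway, measured in the retina of cattle. They were matched by gene symbol, with no expression value in the rule, and 41 of the 13574 genes in the deposited table matched. RNA-seq of poly(A) RNA gave 3 libraries, which form 1 group of retinas from cattle of strain "Mixed", collected between 7 and 10 in the morning. Pooled total RNA went into each library, age is not given in the labels, and no treatment or genotype separates the libraries. Values are FPKM, fragments scaled to gene length and to the reads of the library, so that levels of different genes can be set beside each other.

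WNT proteins are lipid-modified signals that bind frizzled receptors together with a co-receptor. In the canonical branch, dishevelled then holds back a destruction complex built on axin, and beta-catenin reaches the nucleus to act with LEF and TCF factors. In the other branches, frizzled and ROR receptors act on cell polarity and calcium without beta-catenin. Secreted antagonists limit the signal in the space between cells: SFRP proteins and FRZB carry a frizzled-like domain that binds WNT, WIF1 also binds WNT, and DKK1 blocks the co-receptors. In the retina the pathway is known for patterning the eye margin, for cell polarity and, through Norrin and FZD4, for the growth of retinal vessels.

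Library 2 stood apart in XIST, an RNA made from a silenced X chromosome, which had 3987 reads in library 1, 3 in library 2 and 3628 in library 3. Library 2 was thus not made from the same animals in the same proportions. Nothing in the labels says whether libraries 1 and 3 came from separate animals. The deposited values imply denominators of 36656987, 39011741 and 49102476 reads. Rod markers had a median of 1754 FPKM over 9 listed genes, ganglion cell markers 250.5 over 4, Müller glia markers 192 over 8 and amacrine cell markers 31.5 over 5. For tissue around the neural retina, 9 markers of the retinal pigment epithelium had a median of 2.02 FPKM. The median was 0.392 over 8 markers of the lens and 0.656 over 7 of connective tissue. A mean of 10 FPKM or more was reached by 1 of these 9 (TTR), 2 of the 8 (CRYBB1 and CRYBB3) and none of the 7. Of the cell types within the retina that are no neurons, endothelium had a median of 3.26 FPKM over 7 genes, 3 of them at 10 FPKM or more, and microglia of 1.5 over 7.

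Most of the 41 genes were low and a few antagonists were very high. A mean of at least 1 FPKM was reached by 22 of the 41, or 53.7%, against 70.7% of all genes in the table, and at least 10 FPKM by 10, or 24.4%, against 38.4% of all genes. At 100 FPKM the order was the other way round, with 3 of 41, or 7.32%, against 3.81%. The median of the 41 was 1.72 FPKM, against 5.67 FPKM for all genes, and 2 of the 41, or 4.88%, were listed at 0 in every library, against 7.86% of all genes. Together they held 0.609% ± 0.0477 of the summed FPKM of the table (SD, n = 3), and SFRP2 alone made up 64.2% ± 1.34 of that share.

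**Figure D1:**
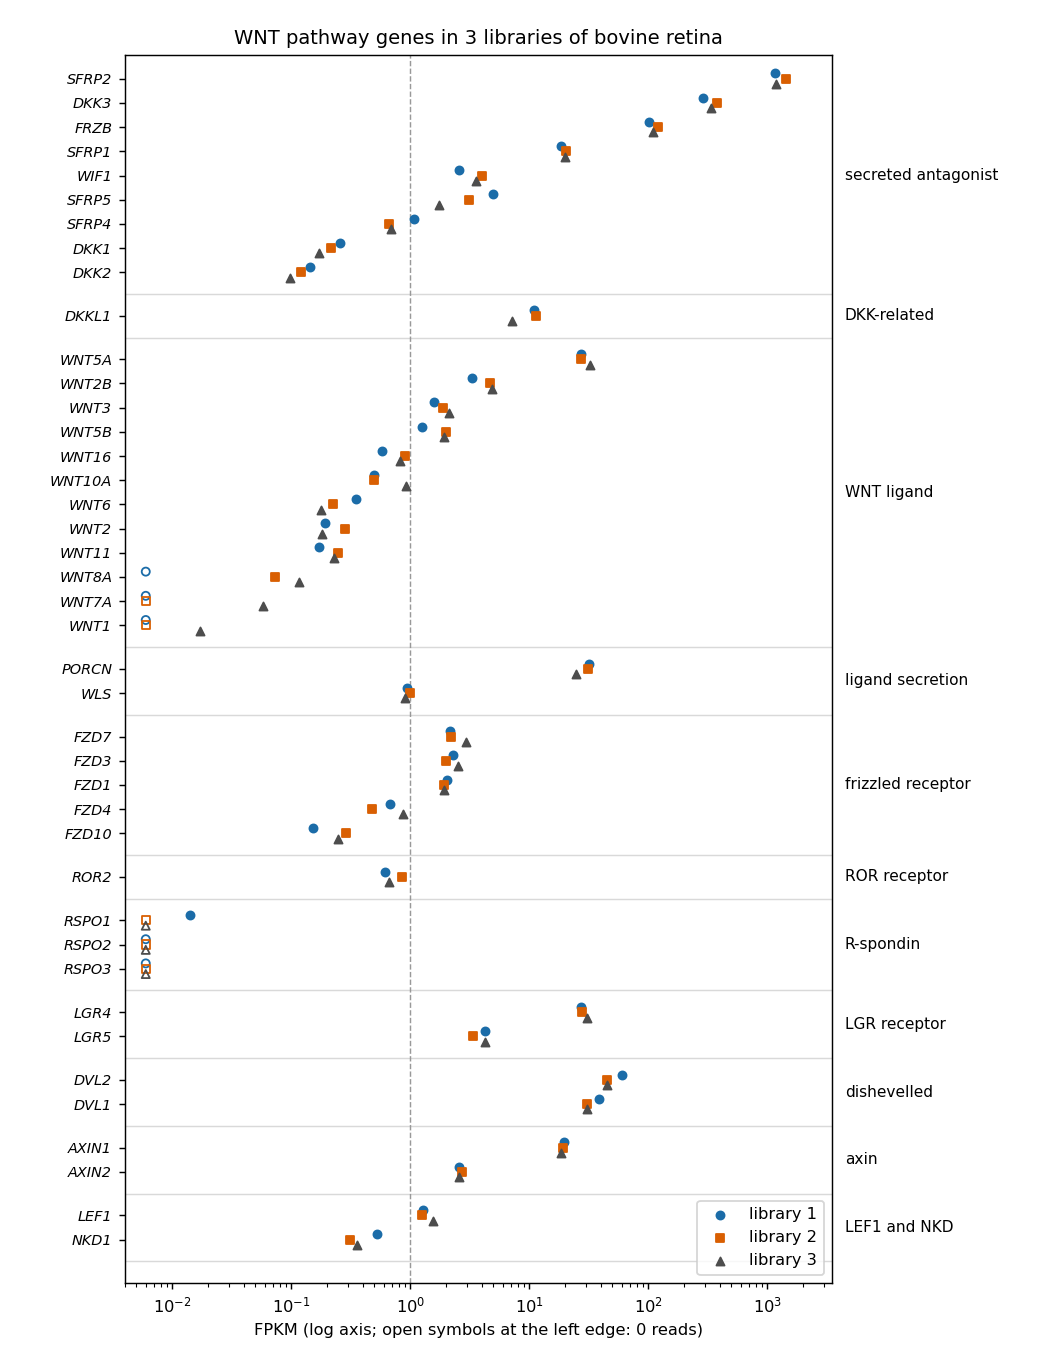
FPKM of each of the 41 genes in the 3 libraries on a log axis, grouped by role, with open symbols at the left edge for 0 reads and a dashed line at 1 FPKM. SFRP2, DKK3 and FRZB lie above 100 FPKM in every library, WNT5A is the one ligand above 10 FPKM, and no frizzled receptor reaches 3 FPKM.

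Secreted antagonists spanned the widest range of any role. SFRP2, a secreted frizzled-related protein, had 1168, 1434 and 1188 FPKM in libraries 1, 2 and 3, with a mean of 1263 FPKM ± 148 (SD, n = 3), and ranked 13 among all 13574 genes. Libraries 1 and 3 were close and library 2 was higher, by 1.23-fold over the lowest. DKK3, a divergent dickkopf protein that does not engage the DKK1 receptors in the same way, had 290.2, 380.4 and 340.0 FPKM and ranked 86. FRZB, also called SFRP3, had 102, 121 and 109 FPKM and ranked 468. These values rest on 85673 to 116699 reads per library for SFRP2, 27386 to 42972 for DKK3 and 8810 to 12633 for FRZB.

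The steps between these 3 genes were wider than their spread over libraries. SFRP2 stood 4.02-, 3.77- and 3.49-fold above DKK3 in libraries 1, 2 and 3, and DKK3 stood 2.84-, 3.13- and 3.11-fold above FRZB. SFRP1, another frizzled-related protein, followed with 18.3, 20.4 and 20.1 FPKM, and FRZB stood 5.65-fold above it (log2 ratio 2.50 ± 0.067, SD, n = 3). The ranges of these 4 genes over libraries did not overlap.

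The other antagonists were low. WIF1, the WNT inhibitory factor, had 2.59, 4.0 and 3.57 FPKM in libraries 1, 2 and 3, and SFRP5 had 5.00, 3.13 and 1.74 FPKM, so that their ranges overlapped and their order is not fixed. SFRP4 had 1.07, 0.667 and 0.690 FPKM, DKK1 0.257, 0.215 and 0.171 FPKM, and DKK2 0.143, 0.122 and 0.0969 FPKM. The last 2 of these rest on 8 to 11 reads per library. The median of the 9 listed antagonists was therefore 3.39 FPKM, below the 5.67 FPKM of all genes, although 3 of the 9 were above 100 FPKM. SFRP2, DKK3 and FRZB together held 98.4% ± 0.136 of the antagonists' summed FPKM, and SFRP2 alone 72.7% ± 1.12 (SD, n = 3). DKK4 and NOTUM, an enzyme that strips the lipid from WNT, were not analysed here, nor were KREMEN1 and KREMEN2, the membrane partners of DKK1, or the membrane antagonist APCDD1.

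DKKL1, which resembles DKK3 in part and is known from the testis, was not counted as an antagonist. It had 11.0, 11.5 and 7.14 FPKM in libraries 1, 2 and 3, from 340 to 435 reads. Library 3 was the low one, and the level lay between those of SFRP1 and WIF1.

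**Figure D2:**
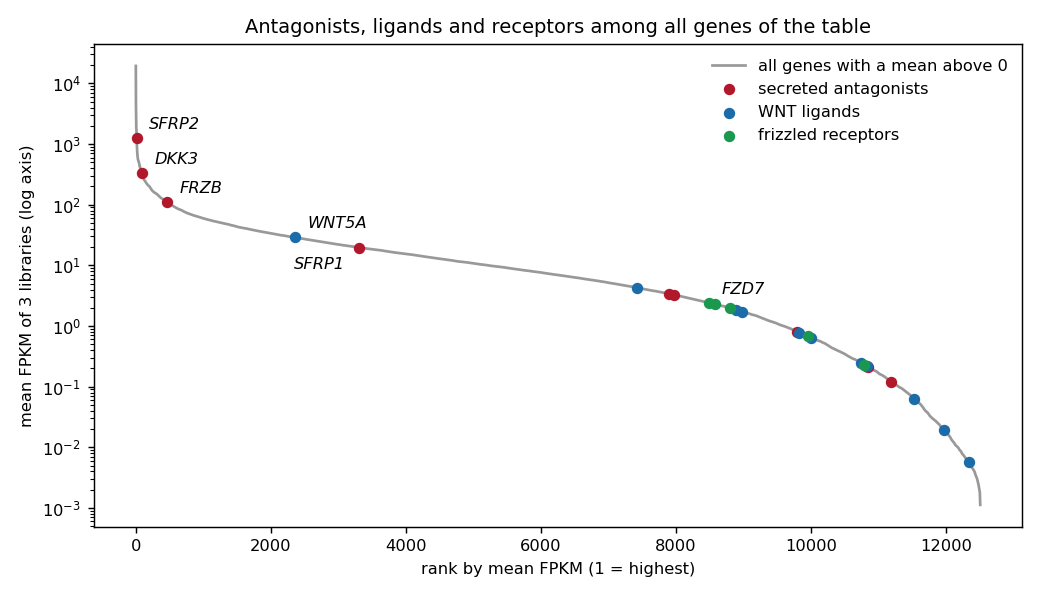
Mean FPKM of 3 libraries on a log axis against rank among the genes of the table with a mean above 0 (line), with the secreted antagonists, WNT ligands and frizzled receptors as points. SFRP2, DKK3 and FRZB sit at ranks 13, 86 and 468, WNT5A at 2352 and the highest frizzled receptor, FZD7, at 8496.

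Among the 12 listed ligands 1 stood apart. WNT5A, the best known ligand of the branches that do not use beta-catenin, had 27.0, 27.2 and 32.7 FPKM in libraries 1, 2 and 3, a mean of 29.0 FPKM ± 3.23 (SD, n = 3) and rank 2352. It held 74.3% ± 2.79 of the ligands' summed FPKM. WNT2B, known in the chick from the margin of the developing eye, came next with 3.32, 4.67 and 4.84 FPKM, and WNT5A was 6.85-fold above it (log2 ratio 2.78 ± 0.24). In ARS-UCD2.0 gene models WNT2B overlaps ST7L, at 7.03 FPKM, so reads of that gene may be in its value.

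WNT3, a canonical ligand, had 1.58, 1.87 and 2.12 FPKM in libraries 1, 2 and 3. WNT5B, the close relative of WNT5A, had 1.26, 1.98 and 1.93 FPKM, and its range overlapped that of WNT3. WNT5B overlaps FBXL14, at 12.7 FPKM, in the same gene models. WNT5A was 21.5-, 13.7- and 17.0-fold above WNT5B in the 3 libraries. The other 8 ligands had means below 1 FPKM: WNT16 at 0.774, WNT10A at 0.644, WNT6 at 0.2501, WNT2 at 0.2198 and WNT11 at 0.216, while WNT8A, WNT7A and WNT1 had at most 6 reads in any library. WNT1 had 0, 0 and 1 reads and WNT7A 0, 0 and 3, and for WNT7A a count of 0 allows up to 0.0779 and 0.0732 FPKM in libraries 1 and 2, a floor of 3 reads that covers counting error only. WNT4, WNT7B, WNT3A, WNT8B, WNT9A, WNT9B and WNT10B were not analysed here.

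Before release, WNT proteins receive their lipid from PORCN and are carried to the cell surface by WLS. PORCN had 32.1, 31.2 and 24.7 FPKM in libraries 1, 2 and 3, and WLS had 0.932, 0.998 and 0.907 FPKM. The level of PORCN was 34.4-fold above that of WLS in library 1 (95% exact interval from reads 27.5 to 43.6), 31.3-fold in library 2 (25.3 to 39.1) and 27.2-fold in library 3 (22.3 to 33.5), and these intervals cover counting error only. All 3 libraries had WLS just under 1 FPKM, from 79 to 103 reads, and its spread was small at 0.946 FPKM ± 0.0468 (SD, n = 3). WNT5A was thus well above the carrier of all WNT proteins in each library.

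The 5 listed frizzled receptors were low throughout. FZD7 had 2.16, 2.18 and 2.92 FPKM in libraries 1, 2 and 3, FZD3, known for its part in axon guidance, had 2.29, 2.02 and 2.54 FPKM, and FZD1 had 2.03, 1.94 and 1.94 FPKM. Neighbouring receptors in this order overlapped over libraries. FZD4, the receptor of Norrin in vessels, was lower at 0.680, 0.477 and 0.872 FPKM, and FZD10 lower still at 0.153, 0.288 and 0.2498 FPKM. ROR2, a receptor tyrosine kinase that binds WNT5A, had 0.620, 0.851 and 0.661 FPKM. FZD2, FZD5, FZD6, FZD8, FZD9 and ROR1 were not analysed here, so that sums over receptors cover 5 of the 10 frizzled genes in ARS-UCD2.0 gene names.

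R-spondins were close to absent from the reads while their receptors were not. RSPO1 had 1, 0 and 0 reads in libraries 1, 2 and 3, and RSPO2 and RSPO3 had 0 reads in each library, which allows at most 0.0324 FPKM for RSPO2 and 0.0372 FPKM for RSPO3. R-spondins are secreted proteins that keep frizzled receptors on the cell surface. Their receptor LGR4 had 27.1, 27.6 and 30.9 FPKM and ranked 2384, and LGR5, known as a stem cell marker in the gut, had 4.26, 3.36 and 4.23 FPKM. LGR4 was 7.26-fold above LGR5 (log2 ratio 2.86 ± 0.19, SD, n = 3). RSPO4 and LGR6 were not analysed here.

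Of the intracellular mediators, DVL1, DVL2 and AXIN1 were at moderate levels, while AXIN2, LEF1 and NKD1 were low. DVL2, a dishevelled protein, had 60.4, 44.7 and 45.4 FPKM in libraries 1, 2 and 3, and DVL1 had 38.5, 30.6 and 30.4 FPKM. Both were highest in library 1, and DVL2 stood 1.51-fold above DVL1 (log2 ratio 0.59 ± 0.053). AXIN1, a scaffold of the destruction complex, had 19.7, 19.1 and 18.6 FPKM. AXIN2, its relative that is itself a feedback target of the canonical branch, had 2.59, 2.72 and 2.57 FPKM, and AXIN1 was 7.29-fold above it (log2 ratio 2.87 ± 0.059, SD, n = 3). LEF1, a nuclear partner of beta-catenin, had 1.28, 1.25 and 1.55 FPKM, and NKD1, a feedback inhibitor that binds dishevelled, had 0.527, 0.315 and 0.358 FPKM. DVL3 and NKD2 were not analysed here.

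The levels of the antagonists were then set against those of ligands and receptors within each library. Summed over genes, secreted antagonists had 1588, 1965 and 1664 FPKM in libraries 1, 2 and 3, against 35.0, 38.0 and 44.1 FPKM for the WNT ligands and 7.32, 6.90 and 8.51 FPKM for the frizzled receptors. Antagonists were 45.4-, 51.7- and 37.7-fold above ligands, a log2 ratio of 5.48 ± 0.23 (SD, n = 3), and higher in 3 of 3 libraries. Against frizzled receptors the ratio was 217-, 285- and 195-fold, a log2 ratio of 7.84 ± 0.28. Without library 2 the log2 ratios were 5.37 over ligands and 7.69 over frizzled receptors. The exact two-sided sign-flip test over libraries gave p = 0.25 for each ratio, the smallest it can give with 3 libraries, so that it could not have passed a threshold of 0.05. The sums cover 9 of 11 antagonists, 12 of 19 ligands and 5 of 10 frizzled genes named in the ARS-UCD2.0 assembly.

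**Figure D3:**
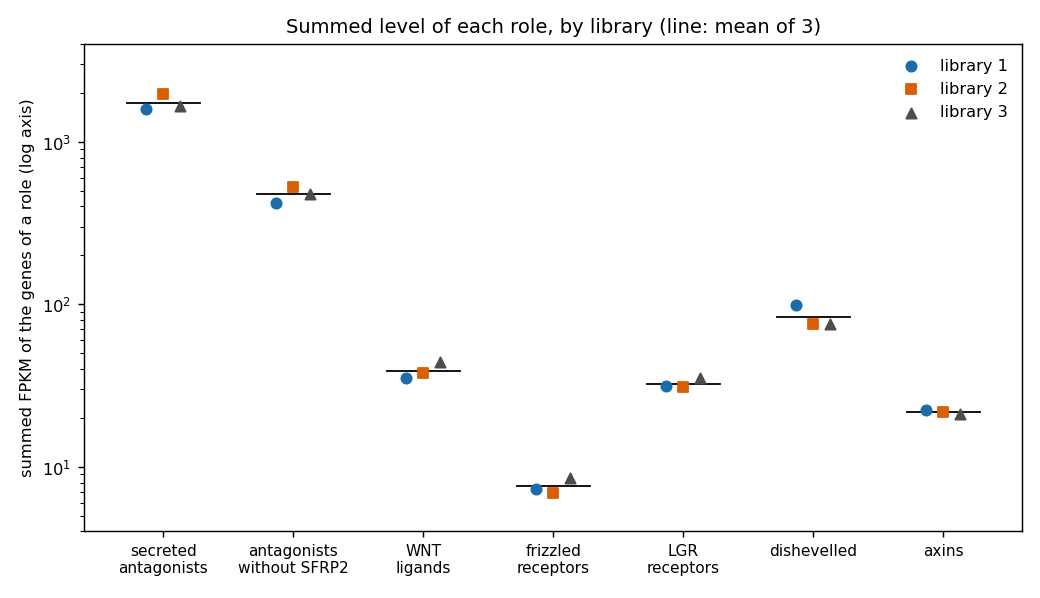
Summed FPKM of the genes of each role in the 3 libraries on a log axis, with a line at the mean of 3. Antagonists with and without SFRP2 lie above ligands, frizzled receptors, LGR receptors, dishevelled and axins in every library, and frizzled receptors have the lowest sums of the roles plotted.

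Much of this gap came from 2 genes. Without SFRP2 the antagonists summed to 419.9, 530.5 and 475.9 FPKM in libraries 1, 2 and 3, still 12-, 14.0- and 10.8-fold above the ligands (log2 ratio 3.61 ± 0.19) and 57.4-, 76.8- and 55.9-fold above the frizzled receptors (log2 ratio 5.97 ± 0.25, SD, n = 3). Leaving out DKK3 as well brought the log2 ratio over ligands to 1.83, and over frizzled receptors to 4.20. As medians, antagonists were above ligands by 1.85 ± 0.23 on the scale of log2(FPKM + 1), which understates differences between low genes. The median FPKM was 3.39 for antagonists, 1.97 for frizzled receptors and 0.447 for ligands. Gene against gene, SFRP2 was 43.2-fold above WNT5A in library 1 (95% exact interval 41.2 to 45.4), 52.7-fold in library 2 (50.3 to 55.2) and 36.3-fold in library 3 (35.0 to 37.7).

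Levels in whole tissue do not say which cells hold an RNA, and fewer cells of a type and less RNA per cell cannot be told apart. DKK3 is itself on the list of Müller glia markers, whose 8 listed genes, DKK3 included, summed to 1573, 1720 and 1550 FPKM in libraries 1, 2 and 3. Without DKK3 the other 7 summed to 1283, 1339 and 1210 FPKM. Single markers did not move together. RLBP1 had 393.5, 482.6 and 348.4 FPKM and VIM 283.5, 389.6 and 294.9 FPKM, both highest in library 2, as was DKK3. GLUL had 481.4, 354.4 and 463.1 FPKM, lowest in library 2. Of the 7, 2 were highest and 3 lowest in that library. The part of these cells in the levels of the antagonists was not tested.

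The spread between libraries was near that of the table as a whole. Of the 22 members with a mean of at least 1 FPKM, 18 had a highest library less than 1.5-fold above the lowest, or 81.8%, against 72.2% of all genes at that level. The median was 1.27-fold for the members, against 1.33-fold for all genes. The other 4 were SFRP5, DKKL1 at 1.61-fold, WNT5B at 1.58-fold and WIF1 at 1.54-fold. On the scale of FPKM + 1 only SFRP5 reached 2-fold, 1 of 22 or 4.55%, against 3.27% of the 9599 genes of the table at that level.

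SFRP5 was 2.88-fold higher in library 1 than in library 3 (95% exact interval 2.36 to 3.53), with 312, 208 and 145 reads in libraries 1, 2 and 3. Most markers of the retinal pigment epithelium were also highest in library 1 and lowest in library 3, 7 of 9 in each case. The share of all genes with this order was not computed. Genes of other lists, such as CLDN5, SNCG and ID2, had the same order, while others, such as GLUL and CTNNB1, did not. The 9 listed genes, of which 7 had a mean of at least 1 FPKM, summed to 49.1, 29.0 and 15.3 FPKM, and to 16.9, 11.5 and 8.33 FPKM without TTR and RPE65. The visual cycle enzyme RPE65 had 6.39, 1.92 and 1.61 FPKM and the thyroid hormone carrier TTR 25.8, 15.6 and 5.36 FPKM, while the pigment cell gene TYRP1 had 2.06, 1.77 and 2.24 FPKM, highest in library 3, and the pigment enzyme TYR was listed at 0, 0 and 0.00992 FPKM. The part of pigment epithelium in the level of SFRP5 was not tested.

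Ligands and several antagonists shared a low library. SFRP2, DKK3, FRZB, SFRP1, WIF1, WNT5A, WNT2B, WNT3 and WNT5B were all lowest in library 1, and in all 11 of the 22 members, or 50.0%, were lowest there, against 24.5% of all genes that averaged 1 FPKM or more. After scaling of the libraries to equal summed FPKM the count was 9 of 22, with 28.4% of all genes, and WNT5A was then lowest in library 2. After scaling by the median ratio it was 15 of 22, with 34.4% of all genes. Among the 9 genes named, the highest library was from 1.11-fold (SFRP1) to 1.58-fold (WNT5B) above library 1.

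**Figure D4:**
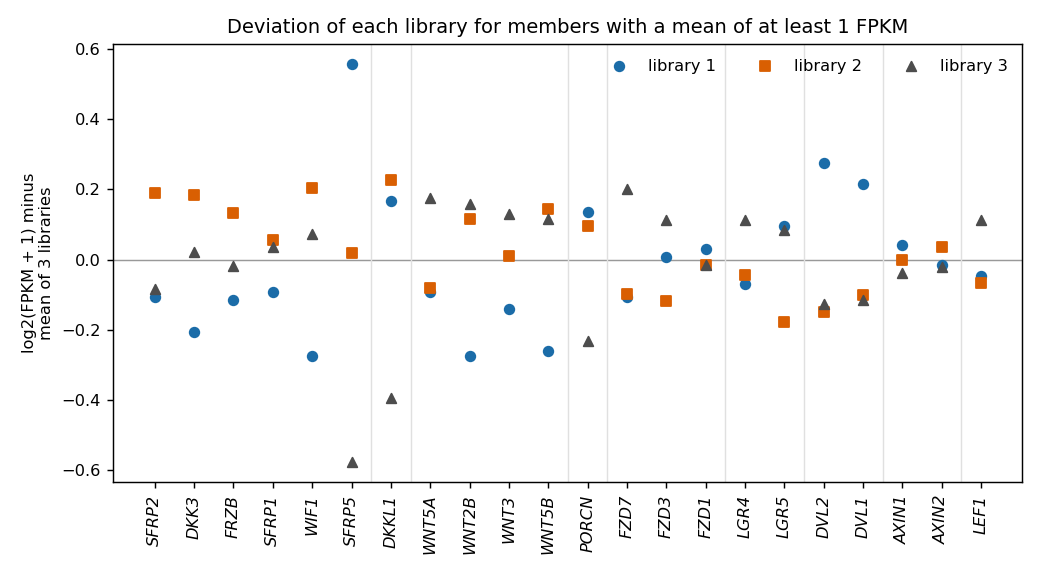
Deviation of each library from the mean of 3, on the scale of log2(FPKM + 1), for the 22 members with a mean of at least 1 FPKM, in the order of roles from antagonists at the left to LEF1 at the right. SFRP5 has the widest spread, with library 1 highest and library 3 lowest, and the 2 dishevelled genes are highest in library 1.

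Further genes of the pathway were described by lists. Most of the 17 listed genes of the core of the canonical branch were present at moderate levels. Each of the 17 averaged 1 FPKM or more, against 70.7% of all genes. At least 10 FPKM was reached by 11 of the 17, against 38.4%, with a median of 14.9 FPKM. APC2, TNKS2, AMER1, TCF7L1, BCL9, PYGO1 and TLE2 of the core were not analysed here. CTNNB1, beta-catenin itself, had 72.0, 54.2 and 82.3 FPKM in libraries 1, 2 and 3, CBY1, which binds and restrains beta-catenin, had 74.1, 68.6 and 55.7 FPKM, and the kinase GSK3A of the destruction complex had 60.0, 63.3 and 60.3 FPKM. These levels were above those of every listed ligand and frizzled receptor. The nuclear factors TCF7L2 and TCF7 were low, at 2.76 FPKM ± 0.417 and 1.24 FPKM ± 0.104 (SD, n = 3).

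Norrin, encoded by NDP, activates FZD4 although it is no WNT protein. NDP had 8.38, 8.43 and 7.16 FPKM in libraries 1, 2 and 3, above WNT2B and every other listed ligand but WNT5A. It was 12.3-, 17.7- and 8.21-fold above FZD4 in the 3 libraries, and TSPAN12, which supports Norrin signalling at FZD4, had 0.990, 1.06 and 0.924 FPKM. Endothelial markers, from cells known to carry FZD4, summed to 84.2, 85.5 and 70.9 FPKM over 7 genes. The largest part of that sum was CLDN5, at 47.8, 44.5 and 30.8 FPKM. CLDN5 and ESAM were highest in library 1 and VWF in library 2. PECAM1, CDH5, KDR and TEK were highest in library 3, as was FZD4. Genes of other lists, such as APC, TNKS and KCNJ10, were also highest in library 3, while others, such as RLBP1 and ID2, were not. The share of all genes highest there was not computed. The part of endothelium in the level of FZD4 was not tested. Of the 5 listed genes of the co-receptor and Norrin list 3 had at least 1 FPKM, against 70.7% of all genes, with LRP4 at 6.27 FPKM ± 1.25 and the receptor-like PTK7 at 4.30 FPKM ± 0.485 (SD, n = 3), and MUSK was listed at 0. The main co-receptors LRP5 and LRP6, and RYK, were not analysed here.

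Of 7 further antagonists and modulators listed, 4 averaged 1 FPKM or more, against 70.7% of all genes, and none reached the level of SFRP2. SERPINF1, a secreted protein that can block LRP6, had 10.8, 23.4 and 8.24 FPKM in libraries 1, 2 and 3, with library 2 the high one, and it overlaps SMYD4 in ARS-UCD2.0 gene models. IGFBP4 and SOSTDC1, which both bind WNT receptors or co-receptors, had 3.68 FPKM ± 0.400 and 1.89 FPKM ± 0.349 (SD, n = 3), and the bone antagonist SOST had 0.589 FPKM ± 0.0611. In the turnover list, RNF43, an enzyme that removes frizzled receptors, had 0.202 FPKM ± 0.0486. TMEM67, a protein of the cilium base that binds WNT5A, had 4.34 FPKM ± 0.564, and ZNRF3 and USP6 were not analysed here.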

How the data were processed

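Retinas were dissected into a stabilising reagent, and poly(A) RNA was copied with random primers and sheared to about 200 bp, per the labels' protocols. CASAVA 1.8.1, the aligner GSNAP and the counter HTSeq are named in the submitters' processing notes. The sources used here do not give build, annotation, strand or the handling of reads with several matches. The deposited FPKM values were computed by the authors, per the file headers, and the deposited table also gives a gene length.

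From the values, FPKM times length was a whole multiple of 1 read (tolerance 0.1, up to 2000 reads) in 100% of values. The reads gave depth, the floor of 3 reads and 95% exact intervals. The recovery was tested on simulated data. On the listed genes lay 21661561, 23791493 and 28280148 reads of libraries 1, 2 and 3. Each pair of libraries differed beyond sampling noise, with chi-square per degree of freedom from 51.5 to 88.8 over genes with 20 or more reads, so none is a copy. SDs measure the spread between these libraries, in which technical differences and differences between animals cannot be told apart.

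All 3 libraries were 1 group, so ratios within libraries were described and no count model was run. Logs used log2(FPKM + 1). Members, roles, lists and tests were chosen with earlier results of these data known. Values per library are given for members averaging 10 FPKM or more, the 3 highest of each role, and antagonists, R-spondins and ligands of at least 1 FPKM. Of the other lists the 3 highest genes, NDP and TSPAN12 are named, and further named genes were chosen after their values were seen. All 41 symbols matched ARS-UCD2.0 names, and 3 genes (WNT2B, WNT5B and WIF1) overlap another gene of the table there. Python 3.11.15, SciPy 1.17.1 and pandas 2.3.3 were used. No reference sequences were used here.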

Additional observations from a re-analysis of the deposited data

How the results depend on the processing

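Depth limits WNT1, WNT7A, WNT8A, RSPO1, RSPO2, RSPO3, DKK1 and DKK2, with at most 11 reads in any library. No ratio changed direction under the alternatives run. Without DKK3 the log2 ratio of antagonists over ligands was 5.17 (1.83 also without SFRP2) and over frizzled receptors 7.53 (4.20 also without SFRP2), the median difference 1.55 and the share of SFRP2 90.1%. With summed reads in place of FPKM, which weights long genes more, the ratio over ligands was 5.81 (4.19 without SFRP2), that over receptors 7.39 and the share 67.4%. Without WNT5A, an alternative chosen after seeing the data, the ratio over ligands was 7.45. The median difference was 3.63 among members of at least 1 FPKM and 3.04 with a pseudocount of 0.1. Leaving out each library in turn gave log2 ratios over ligands of 5.37 to 5.60 (3.51 to 3.69 without SFRP2), over receptors of 7.69 to 7.96 (5.82 to 6.05 without SFRP2), median differences of 1.73 to 1.96 and shares of 72.2 to 73.3%. The count of genes 2-fold apart, 1, was 0 to 1, being 0 without replicate 1 and without replicate 3, each of which leaves out an extreme library of SFRP5. Detected genes numbered 22 at a mean of 1 FPKM, 28 at 0.5 and 18 at 2, and 22 under both scalings, with each library left out and in every library. Scaling, chosen after seeing the data for the count lowest in library 1, gave the values printed with it. Mean levels of single genes under scaling or without a library were 0.740 to 1.24 times those reported. The alternative with APCDD1, KREMEN1 and KREMEN2 was not run, since none of them is analysed here. No paired analysis was possible because all libraries form 1 group.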

Other observations

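The listed genes of planar cell polarity, the branch that orients cells within a sheet, had levels under 10 FPKM. CELSR1, PRICKLE2, DAAM2 and SCRIB were not analysed here. Among 8 listed genes 7 averaged 1 FPKM or more, against 70.7% of all genes, and none reached 10 FPKM, against 38.4%, with a median of 3.28 FPKM against 5.67 FPKM. ANKRD6, which binds dishevelled, had 5.46, 5.86 and 5.73 FPKM in libraries 1, 2 and 3, the atypical cadherin CELSR2 had 4.83, 5.31 and 6.85 FPKM, and the actin regulator DAAM1 had 3.72, 2.97 and 4.59 FPKM. VANGL2, a membrane protein at the centre of this branch, had 3.64 FPKM ± 0.390 (SD, n = 3).

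Of 9 listed genes known as targets of the canonical branch in other tissues, 7 averaged 1 FPKM or more, against 70.7% of all genes, and 1 reached 10 FPKM, against 38.4%, with a median of 2.22 FPKM against 5.67 FPKM. ID2, an inhibitor of helix-loop-helix factors, had 26.8, 20.1 and 15.1 FPKM in libraries 1, 2 and 3, the cyclin CCND2 had 8.09, 3.97 and 5.54 FPKM and the adhesion receptor CD44 had 6.39, 5.69 and 4.90 FPKM. CCND2 was highest in library 1 and lowest in library 2. Many other signals also act on these genes.

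Among the 12 listed ligands, 6 have a gene length that is a multiple of 3, as have 16 of all 41 members, or 39.0%, against 36.4% of all genes in the table. A model that holds the coding part alone leaves out reads of the untranslated ends, and the lengths do not show which of these models do so.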
